A study of Mus musculus with 67 samples.

Results

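The regulatory elements described here are those assigned to 9 genes that set entry into the cell cycle, the D-type cyclins Ccnd1, Ccnd2 and Ccnd3, the cyclin-dependent kinase inhibitors Cdkn1a, Cdkn1b, Cdkn1c and Cdkn2c, and the transcription factor genes Myc and Mycn. An element belonged to the set when the deposited peak annotation gave 1 of these names as its nearest gene. The annotation assigned 76 elements to them, and 64 of these had values in the deposited accessibility table, out of 111638 elements in all. Mycn had 28 of the 64, Ccnd1 and Cdkn1c 9 each, Ccnd2 5, Myc 4, Ccnd3 and Cdkn1a 3 each, Cdkn2c 2 and Cdkn1b 1. A nearest gene is an assignment by distance and not a measured target.

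D-type cyclins bind CDK4 and CDK6, and the active kinases phosphorylate the retinoblastoma proteins, which frees E2F factors to drive DNA replication genes. Cdkn2c encodes p18INK4c, which binds CDK4 and CDK6 directly, whereas Cdkn1a, Cdkn1b and Cdkn1c encode p21, p27 and p57, which bind cyclin-CDK complexes. Myc and N-Myc act upstream of cyclin expression and cell growth. In the embryonic neural tube, cyclin D1 and N-Myc are well known in dividing progenitors, and p27 and p57 in cells leaving the cycle.

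Accessibility was measured by CaTS-ATAC, in which fixed cells are stained for intracellular proteins, sorted by flow cytometry and treated with a transposase that cuts open chromatin. All samples came from HM1 mouse embryonic stem cells, sorted as neuromesodermal progenitors (NMPs) on day 3 or, after retinoic acid and the Shh agonist SAG, as neural progenitors (NPs) on days 4, 5 and 6. The sort gates took SOX2+ cells that were PAX6+ NKX6.1- for p0-1, PAX6+ NKX6.1+ for p2, OLIG2+ NKX2.2- for pMN, and NKX2.2+ OLIG2- for p3. The 67 samples made 25 conditions, with p0-1 taken at 0 and 10 nM SAG, p2 at 10 and 100 nM, pMN and p3 at 100 and 500 nM, and NMPs at 0 nM. Both SAG concentrations of an NP type and day were pooled. This gave 3 samples for NMPs and 4 to 6 for each NP type and day. The paper describes its replicates as independent differentiations, with different cell types sorted from the same dish. Same-numbered samples deviated together at days 5 and 6, as given under the processing, and in 69 of 77 pairs at day 4. They are read as sharing a differentiation. At day 6 all p3 and pMN samples were replicates numbered 2 and 3. Each n thus counts samples and not differentiations. Apart from fits that include the replicate number, SEs and p values treat samples as independent. They measure only the spread between samples and can be too small. One cell line was used, and in sorted bulk samples fewer open cells cannot be told apart from less open chromatin per cell.

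The samples had 9298160 to 29985325 reads in elements. All values below are counts normalized by the authors' size factors, recovered from their variance-stabilized log2 values, unless they are named as log2 differences. Compared with the mean of the others in their condition, replicate 3 of p2 at 100 nM on day 6 had the lowest correlation over elements, at 0.9188, followed by replicates 1 and 3 of p0-1 at 10 nM on day 4, at 0.9343 and 0.9416. Marker genes were read from the element nearest each start site. The summed count of 5 NMP genes was 7050 to 8549 in NMPs and 1387 to 3653 in NPs, the highest NP value being in replicate 3 of p0-1 at 10 nM on day 4. The sum of 3 pluripotency genes was 1573 to 2468 in NMPs and 50.82 to 274.5 in NPs. At day 6 the p3 samples had 1240 to 2215 counts at the Foxa2 element and the other NPs 207.1 to 566.4. NMPs had 1266 to 1685 there, within the p3 range, and Nkx2-2 had no element with values. At day 6 the sum of 2 pMN genes was 3382 to 3468 in pMN against 571 to 1929 in the other NPs. That of 3 p0-1 genes was 3061 to 4122 in p0-1 against 1051 to 1699. The sum of Nkx6-1 and Irx3 did not separate p2 at day 6. It was 4253 to 5653 in p2, 4358 to 5551 in pMN, 4327 to 4961 in p3 and 3583 to 5210 in p0-1.

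Elements are named by gene and by the distance of their centre from the start site used in the annotation, with a minus sign for upstream. For 5 genes that start lies within 100 bp of the outermost RefSeq start, but for Ccnd2, Cdkn2c, Cdkn1a and Ccnd3 it lies 1140, 1384, 2790 and 88416 bp inside the longest model. The 300 bases at the centre of 7 elements are printed, since several of the changes described below fall on them. They were read from the plus strand of GRCm38.p6, the build that mm10 denotes, and 0 of 111638 elements ended beyond a chromosome of it. Capitals mark matches, on either strand, to 1 of 6 short motifs that were searched, which were TGTTTAC for FOX factors, GACCACCCA for GLI, ATCAAAG for TCF/LEF, CACGTG for E-box factors, ACAATG for SOX and TTTCCCGC for E2F. Cdkn1c +32.3 kb (intergenic), Mycn -52.7 kb (intergenic), Myc +7.9 kb (intergenic) and Ccnd3 -21.6 kb (intron 1 of 6 of Ccnd3) gained accessibility in NPs. Mycn +91.0 kb and Mycn +128.9 kb, both intergenic, separated the NP types, and Mycn +14.4 kb, also intergenic, was open in NMPs. The last 3 were chosen after their values were seen.
Cdkn1c +32.3 kb, chr7:143428589-143428888: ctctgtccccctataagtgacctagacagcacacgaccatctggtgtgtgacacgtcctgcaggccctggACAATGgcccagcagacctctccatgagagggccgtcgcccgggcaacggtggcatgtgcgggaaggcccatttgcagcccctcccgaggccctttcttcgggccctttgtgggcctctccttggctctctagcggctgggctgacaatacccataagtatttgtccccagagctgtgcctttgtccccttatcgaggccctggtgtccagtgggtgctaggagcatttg
Mycn -52.7 kb, chr12:12994381-12994680: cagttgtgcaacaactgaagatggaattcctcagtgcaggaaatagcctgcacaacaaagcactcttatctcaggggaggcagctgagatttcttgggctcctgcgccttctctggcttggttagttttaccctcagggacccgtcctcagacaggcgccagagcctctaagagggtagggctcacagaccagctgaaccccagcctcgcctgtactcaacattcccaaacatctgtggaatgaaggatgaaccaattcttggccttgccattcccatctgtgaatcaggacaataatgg
Myc +7.9 kb, chr15:61993119-61993418: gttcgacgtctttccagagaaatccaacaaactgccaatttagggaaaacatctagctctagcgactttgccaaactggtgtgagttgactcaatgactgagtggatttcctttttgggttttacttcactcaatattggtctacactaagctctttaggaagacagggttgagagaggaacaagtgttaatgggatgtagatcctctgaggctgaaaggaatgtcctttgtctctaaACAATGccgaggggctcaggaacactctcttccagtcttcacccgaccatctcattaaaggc
Ccnd3 -21.6 kb, chr17:47571672-47571971: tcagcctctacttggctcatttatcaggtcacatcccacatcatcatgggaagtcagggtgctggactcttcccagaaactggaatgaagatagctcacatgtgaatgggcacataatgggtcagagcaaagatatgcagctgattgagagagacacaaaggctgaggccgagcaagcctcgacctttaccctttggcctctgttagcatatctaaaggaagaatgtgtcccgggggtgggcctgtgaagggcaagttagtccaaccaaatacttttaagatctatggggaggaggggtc
Mycn +91.0 kb, chr12:12850731-12851030: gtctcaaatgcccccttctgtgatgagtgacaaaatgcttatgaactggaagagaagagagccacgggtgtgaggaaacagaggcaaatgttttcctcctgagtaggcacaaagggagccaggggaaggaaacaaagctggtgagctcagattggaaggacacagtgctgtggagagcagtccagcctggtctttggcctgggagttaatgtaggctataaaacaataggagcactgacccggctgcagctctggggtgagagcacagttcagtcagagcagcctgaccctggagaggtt
Mycn +128.9 kb, chr12:12812817-12813116: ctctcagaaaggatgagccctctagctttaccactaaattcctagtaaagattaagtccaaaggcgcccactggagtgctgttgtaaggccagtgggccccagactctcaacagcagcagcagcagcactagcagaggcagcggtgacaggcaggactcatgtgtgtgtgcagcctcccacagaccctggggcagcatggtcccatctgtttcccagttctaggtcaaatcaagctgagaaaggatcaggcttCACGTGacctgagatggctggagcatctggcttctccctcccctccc
Mycn +14.4 kb, chr12:12927330-12927629: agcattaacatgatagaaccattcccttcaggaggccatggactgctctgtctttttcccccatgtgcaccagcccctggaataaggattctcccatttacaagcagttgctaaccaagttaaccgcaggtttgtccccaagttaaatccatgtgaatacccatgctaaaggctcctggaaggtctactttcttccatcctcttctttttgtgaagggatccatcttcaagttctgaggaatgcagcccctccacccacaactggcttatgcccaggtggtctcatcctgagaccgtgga

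Few of these windows held a motif. Cdkn1c +32.3 kb and Myc +7.9 kb each had a SOX match, and Mycn +128.9 kb an E-box match. SOX matches were in 17 of the 64 members, 26.6%, against 21.1% of all 111638 windows of this length. FOX matches were in 3 of 64, 4.69%, against 4.96% of all windows, and E-box matches in 3 of 64, 4.69%, against 4.17%. GLI, TCF/LEF and E2F matches were in 1 member each, 1.56%, against 0.392%, 5.04% and 0.528% of all windows. The single E2F match was at Ccnd1 -1.6 kb, the element over the start of Ccnd1. These counts describe letters in a window and not bound sites.

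The element nearest the start site of each gene was open in every condition, with a mean over all samples between 964 counts for Cdkn1c and 2691 for Myc. Per length, its mean count per kb of element was 605 for Ccnd1, 551 for Ccnd2 and 451 for Ccnd3. Among the inhibitors it was 756 for Cdkn1a, 977 for Cdkn1b, 384 for Cdkn1c and 654 for Cdkn2c. At Myc and Mycn it was 536 and 394 counts per kb. The range of the 25 condition means had a median of 0.67 log2 units over these 9 elements, from 0.35 to 1.11. Over the other 55 members it had a median of 2.31, from 0.67 to 5.42. These 55 had a median of 51.8 counts, against 1790 for the 9 start site elements, and low counts vary more. Over the 22 of the 55 with a mean above 100 counts the median range was 2.72, against 1.7 for all elements above 100 counts. Medians over the whole table were 0.77 for 8271 elements annotated as promoter-TSS and 2.32 for all elements. Elements counted as called had a log2 difference over 1 in either direction with limma's adjusted p under 0.01, and only elements with a mean above 100 counts in the samples compared were tested. None of the 9 start site elements met this in 31 comparisons, which gave 0 calls by limma in 279 tests, with 90 at an unadjusted p under 0.05 and 41 at an adjusted p under 0.01. With limma's voom on the recovered reads there was 1 call, Ccnd1 -1.6 kb between days 4 and 6 of pMN, with a log2 difference of -1.01 and an adjusted p of 3.28e-07. Among all elements tested, the share called in a comparison lay between 0% and 46.8%.

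**Figure D1:**
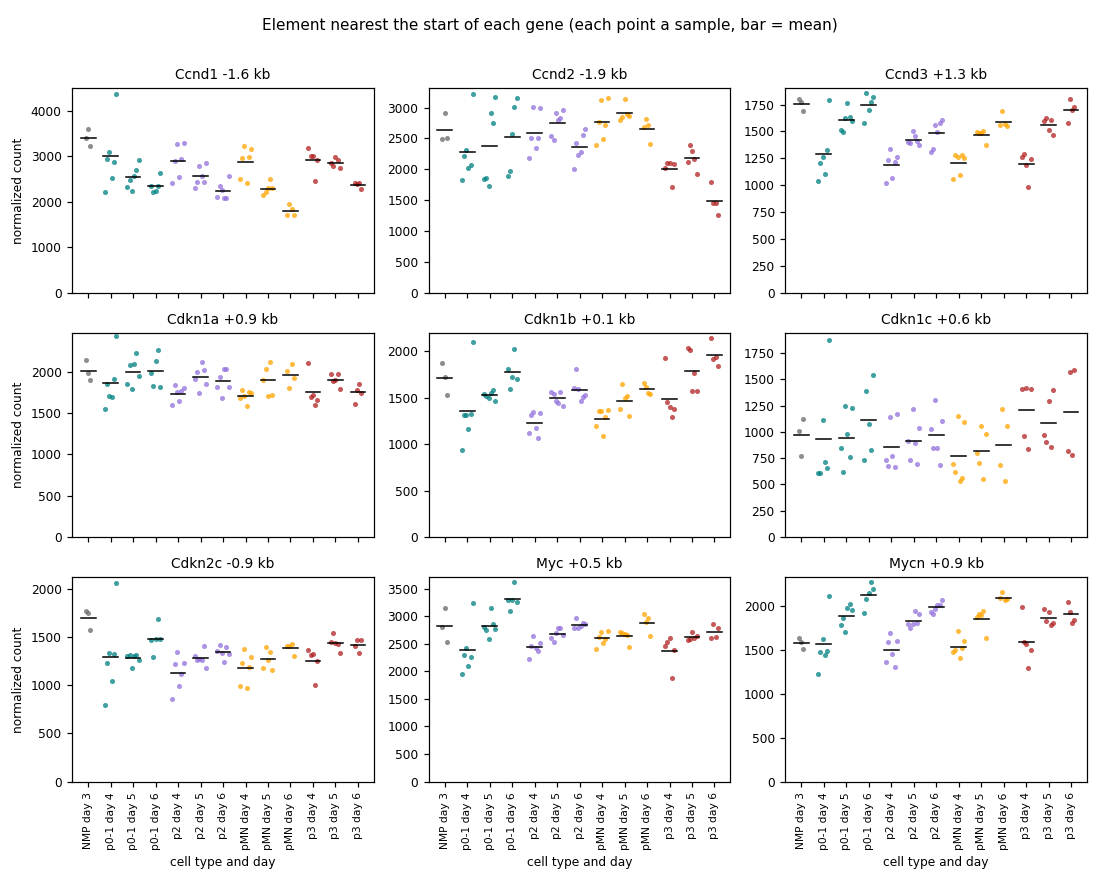
Normalized count, on linear axes from 0, of the element nearest the start site of each of the 9 genes, by cell type and day. Each point is a sample and each bar the mean. The counts at Ccnd2 -1.9 kb in p3 at day 6, 1255 to 1797, lie below all other samples of that day.

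The sizes below that threshold are shown for Ccnd2, Cdkn1b, Ccnd1 and Cdkn1c. At day 6 the 4 p3 samples had 1797, 1455, 1459 and 1255 counts at Ccnd2 -1.9 kb, which lies at chr6:127150752-127155179 and covers the start of this cyclin gene. The pMN samples had 2687, 2807, 2712 and 2410. The p2 samples ranged from 2006 to 2647, and those of p0-1 were 1892, 1967, 2574, 3014 and 3149. All p3 samples were thus below all others, and the log2 difference of p3 from pMN was -0.84 (SE 0.1, adjusted p 0.000102), from p2 -0.66 (SE 0.1, adjusted p 0.000156) and from p0-1 -0.73 (SE 0.17, adjusted p 0.00425). Cdkn1b +0.1 kb, over exon 1 of the p27 gene at chr6:134919742-134921311, had 2140, 1920, 1934 and 1838 counts in the p3 samples of day 6 and 1658, 1611, 1555 and 1545 in those of pMN, a log2 difference of 0.29 (SE 0.06, adjusted p 0.00235). Between days 4 and 6 in pMN, Ccnd1 -1.6 kb, at chr7:144939324-144943659, had 2872 ± 342 (SD, n = 6) and then 1801 ± 118 (SD, n = 4) counts, a log2 difference of -0.66 (SE 0.09, adjusted p 1.33e-05). At Cdkn1c +0.6 kb, over exon 2 of 4 of the p57 gene at chr7:143459186-143461694, the samples followed their replicate number. Replicate 3 was the highest of its condition in 8 of 8 NP conditions on each of days 4, 5 and 6. At day 6 in p3 the samples numbered 2 had 821 and 779.6 counts, and those numbered 3 had 1569 and 1590.

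The first comparison is between NMPs at day 3 and each NP type at day 4, the step at which the cells become neural. Elements near Cdkn1c, Mycn and Myc were more open in NPs, and others near Mycn, Ccnd3, Cdkn1a and Cdkn2c were less open. Of 31 members tested, 14 were called for at least 1 NP type, 9 higher in NPs and 5 lower, which is 45.2% against 52.7% of all elements tested. Of all elements 24.6% were higher and 28.1% lower. Per NP type, 37.9% to 44.8% of the members were called, while the share of all elements was 40.2% in the p0-1 comparison, 46.2% in that of p2, 46.8% in that of pMN and 43% in that of p3. The median log2 difference was -0.40 to -0.49 over all elements and -0.21 to -0.33 over the members tested. Relative to the median element a rise is thus larger and a fall smaller than the value printed, and the variance-stabilized scale understates the change of elements with low counts. Summed counts at markers of other cells were lower in NPs over the same step, beside the pluripotency and NMP sums given above. The sum of 3 fibroblast genes was 1565 to 1814 in NMPs and 523.7 to 871 in NPs at day 4, that of 2 endoderm genes 534.2 to 673.1 and 186.2 to 365.8, and that of 6 neuron genes 5467 to 6464 and 2687 to 4981. The part of such cells in these differences was not tested.

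Among the cyclins, Ccnd3 had a pair of called elements in intron 1 of its longest model, and Ccnd1 had 1 beyond its end. Ccnd3 -27.3 kb, at chr17:47565831-47566587, had 230.3, 308 and 280.0 counts in the 3 NMP samples, and its means at day 4 were 66.3 in p0-1, 59.5 in p2, 58.6 in pMN and 60.3 in p3. It fell in all 4 types, with log2 differences between -1.86 in p0-1 and -2.01 in pMN. Ccnd3 -21.6 kb, in the same intron, had 167, 102 and 162 in NMPs and rose, to a mean of 344 in p0-1, with a log2 difference of 1.19 (SE 0.2, adjusted p 0.000129). The rise was called in p0-1 and p3 and in neither without NMP replicate 2, with log2 differences of 0.98 and 0.97. Ccnd1 +11.5 kb, which lies in intron 4 of 4 of LTO1 just beyond the end of Ccnd1 at chr7:144926995-144929835, had 320.3 ± 84.8 (SD, n = 3) in NMPs and 129 ± 53.0 (SD, n = 6) in p0-1, a log2 difference of -1.28 (SE 0.26, adjusted p 0.000665). Its calls in p2 and pMN were lost without NMP replicate 3, at -0.88 and -0.97, and that in p2 also without replicate 1 of p2 at 10 nM, at -0.98. With samples centred on their median none of its 3 calls was kept, at -0.64 to -0.87.

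Among the inhibitors, Cdkn1c had the largest log2 rise of the members tested, in each of the 4 types. Cdkn1c +32.3 kb had 37.6, 29.7 and 56.0 counts in the 3 NMP samples. At day 4 the lowest, median and highest of 6 samples were 983, 1087 and 1623 in p0-1, 1236, 1401 and 1674 in p2 and 1479, 1528 and 1985 in pMN. The 5 p3 samples had 2182, 1528, 2023, 1652 and 1936. Every NP sample was above every NMP sample, and the log2 difference was 4.46 (SE 0.2, adjusted p 4.86e-10) in p0-1 and 5.16 (SE 0.16, adjusted p 1.01e-13) in p3. Cdkn1a +6.1 kb, which covers exon 3 of 3 of the p21 gene at chr17:29098613-29101222, fell in all 4 types. It had 885, 1242 and 1064 in NMPs and 198, 258 and 483 as lowest, median and highest in p2, with a log2 difference of -1.85 (SE 0.21, adjusted p 1.11e-06). Replicate 3 was the lowest sample at this element in 7 of 8 NP conditions on day 4 and in 8 of 8 on days 5 and 6. Cdkn2c +7.8 kb, downstream of the p18 gene at chr4:109656879-109658207, had 805, 870.0 and 759 in NMPs and 309 ± 64.5 (SD, n = 6) in pMN. It fell by 1.11 to 1.38 log2 units in the 4 types, the call in p3 being lost without replicate 1 of p3 at 500 nM, at -0.98. With samples centred on their median the falls were -0.66 to -0.96, and none was called. The only element of Cdkn1b, at its start, had 1708 ± 170.0 (SD, n = 3) in NMPs and 1490 ± 251 (SD, n = 5) in p3, and was not called.

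Among the Mycn elements that passed the filter, 5 rose in at least 1 type and 1 fell, and weak Mycn elements that also fell are given at the end. Mycn -52.7 kb had 82.4, 49.9 and 71.1 counts in NMPs. At day 4 its lowest, median and highest samples were 1200, 1429 and 1588 in p0-1, 1245, 1445 and 1483 in p2 and 1158, 1283 and 1499 in pMN, and the p3 samples had 1793, 1685, 1465, 1376 and 1313. The 4 NP types overlapped with each other and none overlapped with NMPs, with log2 differences of 4.18, 4.17, 4.05 and 4.27, with the largest SE, 0.17, and the largest adjusted p, 2.51e-10, in p0-1. Mycn +14.4 kb had 258, 391 and 463 in NMPs and 9.66, 13.0 and 30.3 as lowest, median and highest in p0-1. It fell by 3.48 to 3.75 log2 units, and up to day 6 the highest of all NP samples had 74.4 counts, in pMN. Without NMP replicate 3 its mean was under the filter in p0-1, p2 and pMN, so it was not tested there. Mycn +131.0 kb, at chr12:12810130-12811455, rose in all 4 types, from 468 ± 89.8 (SD, n = 3) to between 982 in p0-1 and 1528 in p3, with log2 differences of 1.06 to 1.69. The smallest, in p0-1, was lost without NMP replicate 1 or 2, at 0.98 and 1.00. Mycn +91.0 kb rose in the 3 types other than p3, and its values are given with the comparison of NP types below. Mycn -106.7 kb had 8.48, 10.8 and 16.1 counts in NMPs and rose to means of 173 in p0-1 and 163 in p3, with log2 differences of 3.01 (SE 0.23, adjusted p 5.06e-08) and 2.92 (SE 0.26, adjusted p 1.77e-08). In p2 and pMN it was under the filter, and in p3 it was so without replicate 1 or 3 at 100 nM or replicate 1 or 3 at 500 nM. Mycn -110.6 kb was tested in p3 alone, where it rose from a mean of 5.16 in NMPs to 184, a log2 difference of 3.63 (SE 0.26, adjusted p 1.47e-09). Like every tested element with a mean under 100 counts in NMPs, it passed the filter only through the NP samples. A difference was thus fixed in advance for such elements, and their adjusted p values are no separate support. The same holds for the falls of Mycn +14.4 kb and Ccnd3 -27.3 kb. Their day 4 means were under 100 counts in all 4 types, and they passed the filter only through the NMP samples.

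Myc had a pair of tested elements away from its start, and both rose. Myc +7.9 kb had 12.1, 17.5 and 9.69 counts in NMPs, and 162, 195 and 225 as lowest, median and highest in pMN, a log2 difference of 3.09 (SE 0.16, adjusted p 7.44e-11). In p3 its 5 samples had 64.6, 121, 137, 120.5 and 121 and it was under the filter. Myc -6.3 kb, at chr15:61978687-61979384, had 48.5, 25.6 and 82.9 in NMPs and 287, 305 and 354 in pMN, and rose by 1.76 to 2.43 log2 units over the 4 types. Myc +0.5 kb, over exon 1 of the gene, had 2829 ± 309 (SD, n = 3) in NMPs and 2601 ± 124 (SD, n = 6) in pMN. The 4 comparisons share the 3 NMP samples, so calls of an element in several NP types are not independent of each other.

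**Figure D2:**
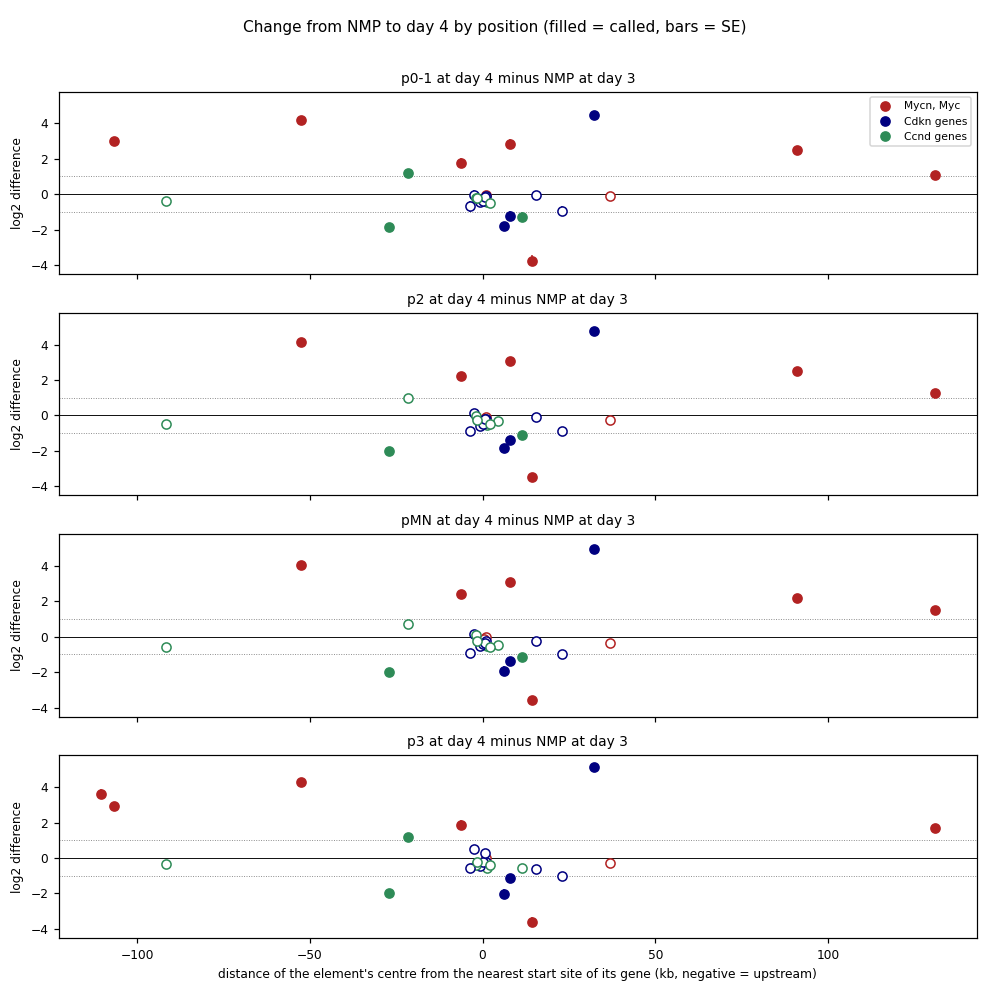
Log2 difference between each NP type at day 4 and NMPs at day 3 for the tested members, against the distance of the element from its start site in kb, with SE bars. Filled points were called, and the 2 highest in each panel are Cdkn1c +32.3 kb and Mycn -52.7 kb.

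**Figure D3:**
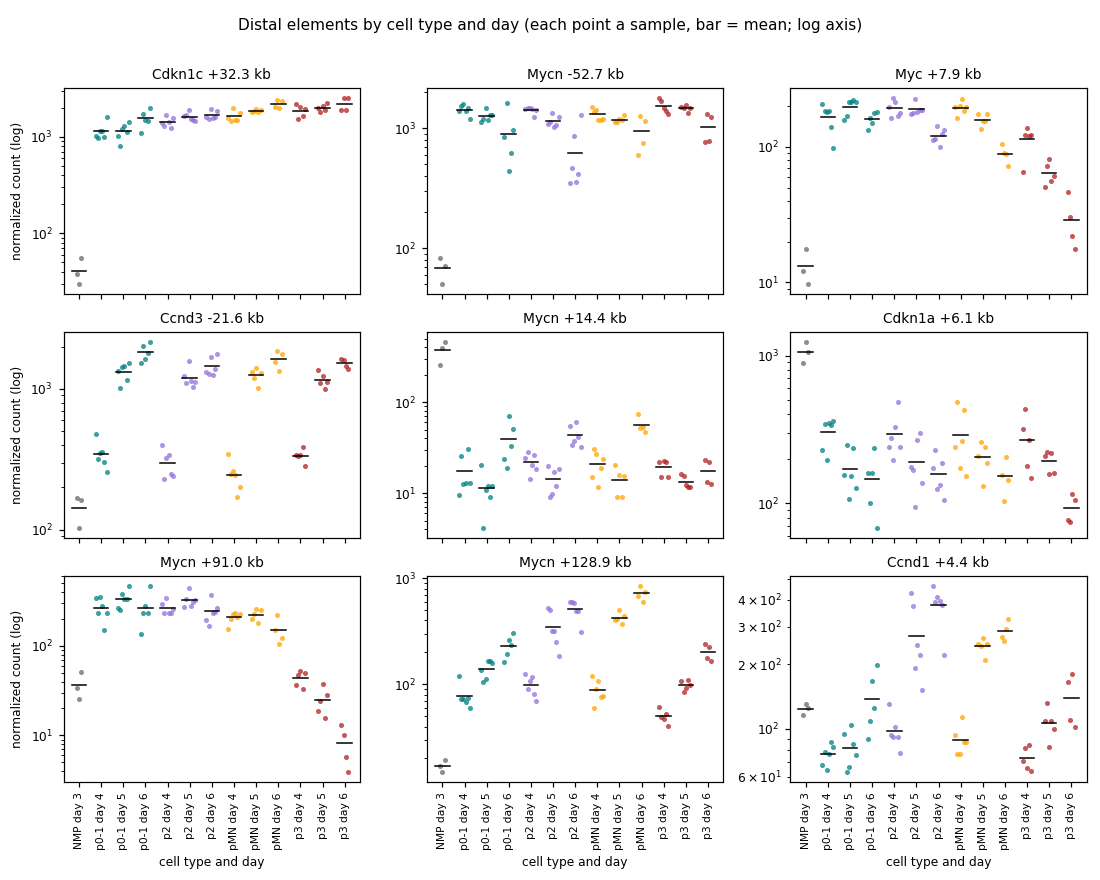
Normalized count, on a log axis, of 9 distal elements by cell type and day. Each point is a sample and each bar the mean, and the p3 means at Mycn +91.0 kb are 43.99 at day 4 and 8.256 at day 6.

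The second comparison follows each NP type from day 4 to day 6. Single elements in Ccnd3 and near Mycn and Cdkn1c rose in all 4 types, and elements near Myc and Cdkn1a closed in some. Of 34 members tested, 14 were called in at least 1 type, which is 41.2% against 37.1% of all elements tested. Per type, 22.6% to 27.6% of the members were called, against 20.9% of all elements in p0-1, 23.7% in p2 and in pMN and 22.7% in p3. The median log2 difference was 0.18 to 0.26 over all elements and 0.20 to 0.31 over the members tested. Of the 14 elements 8 rose and 6 fell, where 26.4% of all elements rose and 10.8% fell. Only Ccnd3 -21.6 kb, Mycn +128.9 kb and Cdkn1c +23.0 kb rose in each of the 4 types. An element with a mean under 100 counts at day 4 or at day 6 passed the filter only through the other day. A difference was then fixed in advance, and its adjusted p is no separate support. Such calls included Mycn +128.9 kb in all 4 types, Ccnd1 +4.4 kb in p2 and pMN, and Ccnd1 -75.9 kb in p3. Others were Myc -6.3 kb in p0-1, p2 and p3, and Cdkn1a +6.1 kb and Mycn -110.6 kb in p3.

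Ccnd3 -21.6 kb rose in every type, and most of the rise was between days 4 and 5. In p0-1 the lowest, median and highest counts were 258, 334 and 476 at day 4 and 1023, 1387 and 1525 at day 5, and the 5 samples of day 6 had 1532, 2021, 1636, 1810 and 2169. In p3 the samples had 337, 334, 338, 386 and 282 at day 4, 1372, 1098, 1243, 996 and 1114 at day 5 and 1634, 1600, 1468 and 1398 at day 6. No sample of day 4 overlapped with any of days 5 or 6 in these types. The log2 difference between days 4 and 6 was 2.39 (SE 0.15, adjusted p 3.11e-08) in p0-1, 2.26 (SE 0.14, adjusted p 2.31e-09) in p2, 2.7 (SE 0.16, adjusted p 5.54e-09) in pMN and 2.15 (SE 0.1, adjusted p 3.24e-08) in p3. At day 6 the NP types were not called against each other at this element, with log2 differences of p3 from p0-1, p2 and pMN of -0.25, 0.08 and -0.09. In pMN the start site element of Ccnd3 was not called, with 1204 ± 99.9 counts (SD, n = 6) at the earlier day and 1592 ± 64.4 (SD, n = 4) at the later. Ccnd1 -75.9 kb rose in p0-1, from 116 ± 24.8 (SD, n = 6) to 287 ± 84.0 (SD, n = 5), and in p3, from 81.0 ± 12.3 (SD, n = 5) to 336 ± 59.5 (SD, n = 4), a log2 difference of 1.89 (SE 0.16, adjusted p 1.14e-06). Ccnd1 +4.4 kb, in intron 3 of 4 of Ccnd1, rose in p2 and pMN, with 1.8 (SE 0.16, adjusted p 1.64e-07) and 1.56 (SE 0.13, adjusted p 1.28e-07).

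At the inhibitor genes, the called rises were at a pair of elements downstream of Cdkn1c. Cdkn1c +23.0 kb rose by 1.44, 1.57, 1.69 and 1.01 log2 units in p0-1, p2, pMN and p3. It had means of 264 in NMPs and, in p3, 129.5 at day 4 and 267 at day 6. In p3 it was not called with a block for the replicate number, at 0.89, or with samples centred on their median, at 0.75, and the call was lost without replicate 1 of p3 at 500 nM on day 4 (0.85) and, on day 6, without replicate 3 at 100 nM (0.96) or at 500 nM (1.00). Cdkn1c +15.4 kb rose in p2, from 158, 204 and 230.0 to 312, 662 and 883 as lowest, median and highest, and in pMN, with log2 differences of 1.58 (SE 0.19, adjusted p 3.75e-06) and 1.52 (SE 0.13, adjusted p 1.43e-07). Cdkn1c +32.3 kb, already open at day 4, went from 1632 to 2203 in pMN and was not called. Cdkn1a +6.1 kb continued to fall in p3, from 269 ± 114 (SD, n = 5) to 93.5 ± 20.2 (SD, n = 4), a log2 difference of -1.33 (SE 0.27, adjusted p 0.00132).

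Myc -6.3 kb was called lower in p0-1, p2 and p3 and not in pMN. The p3 samples had 111, 269, 269.5, 179 and 244 counts at day 4, 64.6, 71.3, 139, 84.7 and 131 at day 5 and 57.7, 36.6, 45.0 and 20.4 at day 6, a log2 difference of -2.12 (SE 0.29, adjusted p 5.81e-05). The pMN samples had 287, 305 and 354 as lowest, median and highest at day 4 and 186, 202, 189 and 280.2 at day 6, a log2 difference of -0.53 (SE 0.12, adjusted p 0.00163). The samples of days 4 and 6 did not overlap in either type, and the difference in pMN was under the size required. In p0-1 the call, at -1.06, was lost without replicate 1 of p0-1 at 10 nM on day 6, at -0.95. Mycn -52.7 kb fell in p2, from 1245, 1445 and 1483 at day 4 to 348, 443 and 1290 at day 6 as lowest, median and highest, a log2 difference of -1.35 (SE 0.26, adjusted p 0.000297). At day 6 replicate 3 was the highest at this element in 8 of 8 conditions. In p2 the samples numbered 3 had 863 and 1290 counts and those numbered 1 and 2 had 348, 469, 354 and 418. Without replicate 3 of p2 at 100 nM on day 6 the log2 difference was -1.59. Mycn -106.7 kb rose in pMN and p3, by 1.21 and 1.22 log2 units, which was 0.87 and 0.96, and not called, with centred samples. Mycn +128.9 kb rose in all 4 types, by 1.43 in p0-1, 2.24 in p2, 2.88 in pMN and 1.77 in p3.

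**Figure D4:**
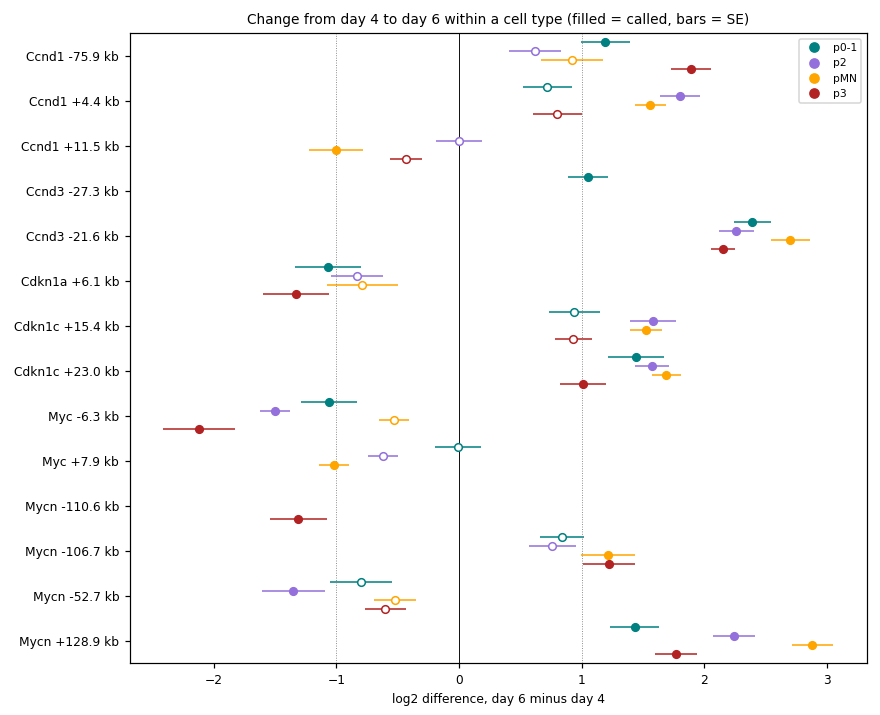
Log2 difference between days 6 and 4 of each NP type, with SE bars, for the 14 members called in at least 1 type. Filled points were called. Ccnd3 -21.6 kb lies above 2 in all 4 types, and Myc -6.3 kb is lowest in p3, at -2.12.

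The third comparison sets p3, the most ventral of the 4 types, against p0-1, p2 and pMN of the same day. At day 4, Mycn +91.0 kb was less open in p3 and Mycn -110.6 kb more open, and these were the only calls. At days 5 and 6, elements near Mycn and Myc, Cdkn1c +15.4 kb and Ccnd1 +4.4 kb were less open in p3 than in at least 1 other type, and Ccnd1 +11.5 kb was more open. At day 4, 2 of 31 members tested were called against at least 1 type, 6.45% against 10.5% of all elements. At day 5 it was 8 of 32, 25% against 25.5%, and at day 6 it was 8 of 33, 24.2% against 33.8%. On each of days 5 and 6, 7 of the 8 were lower in p3 and 1 was higher. This split did not hold without the filter on low counts, where 9 members were higher and 10 lower at day 5, and 10 higher and 10 lower at day 6. Of all elements tested, 16.7% were lower and 8.92% higher at day 5, and 20.2% lower and 13.7% higher at day 6. Against p0-1, p2 and pMN in turn, the members called were 6.67%, 6.90% and 6.67% at day 4, where the shares of all elements were 6%, 6.61% and 7.23%. At day 5 they were 13.3%, 16.1% and 18.8%, with 17.6%, 18.3% and 17.9% of all elements. At day 6 they were 12.9%, 16.7% and 12.9%, with 23.1%, 25.1% and 25% of all elements.

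Mycn +91.0 kb was the member most reduced in p3. At day 4 the p3 samples had 36.3, 47.4, 52.6, 33.4 and 50.2 counts, while the lowest, median and highest were 151, 255 and 352 in p0-1, 232, 246 and 343 in p2 and 155, 218 and 236 in pMN. NMPs had 33.9, 25.6 and 50.6, which overlapped with p3 and with no other NP type. At day 5 the p3 samples had 18.8, 24.2, 37.8, 15.6 and 28.2 and the pMN samples 199.9, 226, 258, 182 and 249.8. At day 6 the p3 samples had 13.2, 10.2, 5.78 and 3.88 and the pMN samples 151, 222, 105 and 124. The groups did not overlap on any day. The log2 difference of p3 from p0-1 was -2.27 (SE 0.21, adjusted p 5.15e-06) at day 4, -3.26 (SE 0.19, adjusted p 9.8e-09) at day 5 and -3.82 (SE 0.32, adjusted p 3.33e-06) at day 6. Against pMN it was -1.98 and -2.71 at days 4 and 5, and at day 6 the mean of both groups was under the filter. The p3 means were 43.99, 24.93 and 8.256 at days 4, 5 and 6, so the element passed the filter only through the other types. A difference was thus fixed in advance, and these adjusted p values are no separate support.

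A second Mycn element had the opposite order. Mycn -110.6 kb had 103, 180.1, 209, 217 and 209 counts in p3 at day 4, against 50.5, 77.8 and 99.7 as lowest, median and highest in pMN, a log2 difference of 1.11 (SE 0.2, adjusted p 0.000484). Its means at day 4 were 67.95 in p0-1, 67.01 in p2 and 77.61 in pMN. It thus passed the filter only through the p3 samples, and a difference in its day 4 comparisons was fixed in advance. It then fell in p3 by 1.31 log2 units up to day 6, when the p3 samples had 94.0, 61.0, 53.1 and 55.4 and the pMN samples 14.3, 17.8, 28.1 and 26.9, both under the filter. Mycn -144.7 kb was lower in p3 at day 6 than in p2, at 72.5, 83.4, 20.8 and 49.5 against 116, 145 and 269 as lowest, median and highest, with -1.44 (SE 0.31, adjusted p 0.00229). Against pMN it was not called, at -1.2 (SE 0.41, adjusted p 0.0391), but with the replicate number as a block it was, at -1.20 (SE 0.29, adjusted p 0.00508). With a p3 mean of 56.57 counts, Mycn -144.7 kb passed the filter only through the other type. These differences too were fixed in advance.

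Mycn +128.9 kb ordered the types as p3 and p0-1 low and p2 and pMN high from day 5. The samples of day 6 had 237, 178, 223 and 167 in p3, 161, 194, 260.3, 236 and 305 in p0-1, 677, 853, 598 and 748 in pMN, and 309, 540.4 and 598 as lowest, median and highest in p2. The p3 samples were below all those of p2 and pMN and overlapped with p0-1. The log2 difference of p3 was -1.78 (SE 0.15, adjusted p 1.31e-05) from pMN, -1.28 (SE 0.18, adjusted p 0.000105) from p2 and -0.17 (SE 0.19, adjusted p 0.512) from p0-1. Ccnd1 +4.4 kb also had p3 and p0-1 lower than p2 and pMN. At Ccnd1 +4.4 kb the p3 samples of day 6 had 165, 109.9, 181 and 102, those of pMN 269, 256, 294 and 325 and those of p2 221, 392 and 466 as lowest, median and highest, with -1.36 (SE 0.21, adjusted p 0.000211) against p2. The call against pMN at day 6, at -1.0, was lost without replicate 3 of p3 at 100 nM (-0.91) or 500 nM (-0.88) and without replicate 2 (-0.99) or 3 (-0.94) of pMN at 500 nM. At Cdkn1c +15.4 kb p3 was lower than p2 and pMN at day 5, by 1.14 and 1.15 log2 units, and than p2 at day 6, by 1.19. Against p0-1 it was not called, with -0.58 at day 5 and -0.57 at day 6.

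Markers of neurons were read in the same samples, all of which were gated as SOX2+. The summed count of 6 neuron genes (Tubb3, Elavl3, Dcx, Isl1, Mnx1 and Stmn2) was 2984 to 3944 in p0-1, 3370 to 5679 in p2, 4304 to 4706 in pMN and 3399 to 3760 in p3 at day 5. At day 6 it was 3518 to 4813 in p0-1, 3530 to 6748 in p2, 4784 to 5737 in pMN and 3937 to 4763 in p3. Within p2 at day 5, the samples numbered 1 and 2 at 10 nM had the highest sums, 5679 and 5475, and also the highest counts at Mycn +128.9 kb, 524.2 and 507.5, while replicate 3 at 100 nM had the lowest of both, 3370 and 185.5. The single neuron genes differed in their order. At day 5, Dcx had means of 105.1 in p0-1, 177.5 in p2, 140.6 in pMN and 48.68 in p3, while Isl1 had 906.2, 848.7, 935.7 and 960.8 and Mnx1 824.8, 716.2, 796 and 772.2. The part of neuronal cells in these differences was not tested. Replicate 3 of p2 at 100 nM on day 6 had the sum of 3530. It also had the lowest p2 counts of that day at Mycn +128.9 kb, 309.2, and at Ccnd1 +4.4 kb, 220.8. Leaving it out thus had to enlarge the differences of p3 from p2 there, and does not test them. The log2 differences without it were -1.41 for Mycn +128.9 kb, -1.50 for Ccnd1 +4.4 kb and -1.38 for Cdkn1c +15.4 kb. All 3 were called with and without it.

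Both tested distal elements of Myc were also lower in p3 than in pMN at day 5. At day 5 the p3 samples had 50.2, 72.6, 80.9, 55.5 and 60.6 counts at Myc +7.9 kb and the pMN samples 173, 135, 154, 154 and 174 without overlap, a log2 difference of -1.17 (SE 0.13, adjusted p 6.72e-06). At day 6 they had 46.2, 30.5, 21.9 and 17.5 and 104, 90.1, 88.2 and 72.4 and were under the filter, and against p0-1 the log2 difference was -2.12 (SE 0.22, adjusted p 1.67e-05), although the mean was under the filter without any 1 of the 5 p0-1 samples. Myc -6.3 kb differed from pMN by -1.21 (SE 0.2, adjusted p 0.000197) at day 5 and -2.16 (SE 0.25, adjusted p 8.56e-05) at day 6. One element was called higher in p3 at days 5 and 6, Ccnd1 +11.5 kb. Its p3 samples had 172, 140.4, 136 and 149 at day 6 against 65.9, 57.5, 55.8, 44.3 and 84.2 in p0-1 and 46.6, 86.4, 41.1 and 74.7 in pMN, without overlap, and its log2 difference from p0-1 was 1.15 (SE 0.18, adjusted p 0.000403). Its mean there was under the filter without any 1 of the 4 p3 samples. Against p2, which had 114, 126 and 212 as lowest, median and highest, the groups overlapped. Each call given here for Myc +7.9 kb, Myc -6.3 kb and Ccnd1 +11.5 kb had a mean under 100 counts in 1 group. It passed the filter only through the group in which the element was high. A difference was thus fixed in advance, and these adjusted p values are no separate support.

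**Figure D5:**
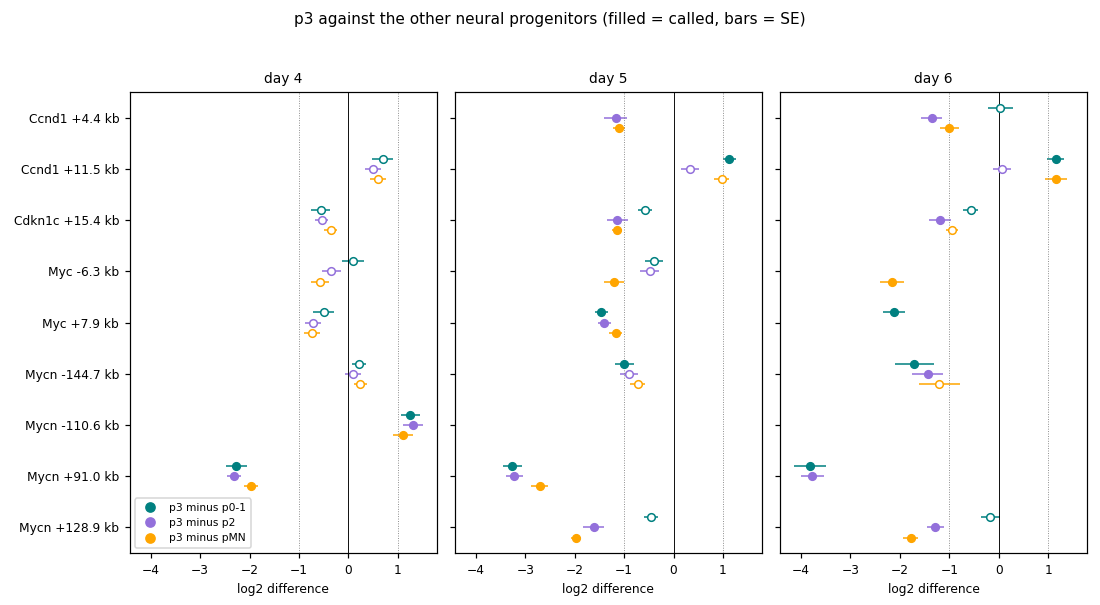
Log2 difference of p3 from p0-1, p2 and pMN at days 4, 5 and 6, with SE bars, for the members called in at least 1 of these comparisons. Filled points were called, and Mycn +91.0 kb is lowest at all 3 days.

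The p0-1, p2 and pMN types differed from each other at fewer members. At day 4 limma called 0 of 30 members among them at the thresholds above, against 3.45% of all elements, with 3, 5 and 6 members at an unadjusted p under 0.05 in the 3 pairs, and voom also called 0. At day 5 it called 2 of 32, 6.25% against 10.5%, and at day 6 it called 4 of 32, 12.5% against 13.4%. Those of day 5 were Mycn +128.9 kb and Ccnd1 +4.4 kb, both higher in p2 and in pMN than in p0-1, where 6.71% of all elements were higher, and they were the only calls. At Mycn +128.9 kb the 6 samples of p0-1 had 105, 147 and 167 as lowest, median and highest, those of p2 186, 318 and 524, and the 5 of pMN 405, 412, 497, 367 and 441. Neither p2 nor pMN overlapped with p0-1, with log2 differences of 1.17 (SE 0.22, adjusted p 0.00265) and 1.52 (SE 0.13, adjusted p 1.28e-06). At Ccnd1 +4.4 kb the samples of p0-1 had 62.9, 80.4 and 104, those of p2 153, 235 and 429 and those of pMN 248, 243, 266, 209.9 and 248, with 1.52 (SE 0.22, adjusted p 0.000593) and 1.46 (SE 0.13, adjusted p 1.44e-06). Ccnd1 +4.4 kb, with a mean of 81.61 counts in p0-1, passed the filter only through p2 or pMN. Its difference was thus fixed in advance. The neuron sums above, higher in pMN and in part of the p2 samples than in p0-1, stand beside the values of both elements too.

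At day 6 the calls among these 3 types were at the same pair of elements and at Ccnd1 +11.5 kb and Myc -6.3 kb. The calls at Ccnd1 +11.5 kb and Myc -6.3 kb had a mean under 100 counts in the lower group. They passed the filter only through the higher group, so a difference was fixed in advance. Myc -6.3 kb was higher in pMN, at 186, 202, 189 and 280.2, than in p2, at 71.3, 84.3 and 105 as lowest, median and highest, with 1.19 (SE 0.15, adjusted p 0.000625). The difference of pMN from p0-1, at 1.2, was not called without replicate 3 of pMN at 100 nM (1.22, adjusted p 0.0116) or 500 nM (1.07, 0.0156), or replicate 2 of p0-1 at 10 nM (1.14, 0.0116). Ccnd1 +11.5 kb was higher in p2 than in p0-1, by 1.08 log2 units, a call lost without replicate 2 of p0-1 at 10 nM (0.99) and under the filter without replicate 3 of p2 at 10 nM. Its lower level in pMN than in p2, at -1.1, was lost without any 1 of 8 libraries, all those of p2 and pMN at day 6 other than replicate 3 of each at 100 nM, with log2 differences of -0.95 to -1.19 and an adjusted p up to 0.0261. Mycn +128.9 kb was higher in p2 and pMN than in p0-1, by 1.1 and 1.6, the former being 0.99 without replicate 2 of p0-1 at 0 nM. Ccnd1 +4.4 kb was higher by 1.39 in p2 and 1.03 in pMN, the latter lost without any 1 of 7 libraries, which were the 4 of pMN, replicates 2 and 3 of p0-1 at 0 nM and replicate 2 of p0-1 at 10 nM, at 0.90 to 1.08 and an adjusted p up to 0.0178.

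Between SAG concentrations within an NP type at day 5, limma and voom called 0 of 33 members, against 0.00251% of all elements. At an unadjusted p under 0.05 there were 7 members in p0-1, 5 in p2, 1 in pMN and 0 in p3. The member with the smallest p was Ccnd2 -1.9 kb, at the start of Ccnd2. In p0-1 at day 5 it had 1844, 1866 and 1733 counts at 0 nM and 2906, 2746 and 3170 at 10 nM, without overlap, and a log2 difference of 0.69 (SE 0.07, adjusted p 0.0255). At day 6, which was not tested, the samples had 1892 and 1967 at 0 nM and 2574, 3014 and 3149 at 10 nM. At day 4 they had 1824, 2214 and 2314 at 0 nM and 2029, 2064 and 3213 at 10 nM, which overlapped. In p2 the difference between 10 and 100 nM was 0.12 (SE 0.08, adjusted p 0.61), and between 100 and 500 nM it was -0.02 (SE 0.09, adjusted p 1) in pMN and -0.15 (SE 0.08, adjusted p 1) in p3. This element was chosen after its values were seen. In p2 at day 5, Mycn +128.9 kb had 524, 508 and 315 counts at 10 nM and 322, 248 and 186 at 100 nM, a log2 difference of -0.8 (SE 0.24, adjusted p 0.327).

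The change from day 4 to day 6 was also compared between p3 and pMN, by an interaction term. It differed at 4 of 32 members, 12.5% against 10.2% of all elements, and was lower in p3 at each, where 5.82% of all elements were lower. The difference was -1.59 (SE 0.31, adjusted p 0.000918) at Myc -6.3 kb, -1.1 (SE 0.23, adjusted p 0.00157) at Mycn +128.9 kb, -1.03 (SE 0.14, adjusted p 3.24e-05) at Mycn +131.0 kb and -1.11 (SE 0.29, adjusted p 0.00765) at Mycn +91.0 kb. At Mycn +131.0 kb, the pMN samples had 1253, 1313 and 1369 as lowest, median and highest at day 4 and 1637, 2252, 1706 and 2452 at day 6, whereas the p3 samples had 1556, 1564, 1688, 1434 and 1395 and then 1092, 1307, 1015 and 1096. On day 6 replicate 3 was the highest at this element in 8 of 8 conditions, and the pMN samples numbered 3 were those with 2252 and 2452. With a block for the replicate number 6 were called, the added ones being Mycn -144.7 kb, lower in p3 at -1.38, and Ccnd1 -75.9 kb, higher in p3 at 1.02. The count of 4 fell to 1 with voom and to 2 with samples centred on their median. The shares of all elements called with the block, voom or centring are not given here. Those counts are therefore not read as a result about the members. The call at Mycn +91.0 kb was lost without any 1 of 12 libraries, at -0.92 to -1.13 with an adjusted p up to 0.0225. They were, on day 4, replicates 2 and 3 of p3 at 100 nM, replicate 3 of p3 at 500 nM, the 3 of pMN at 100 nM and replicates 2 and 3 of pMN at 500 nM, and, on day 6, both of pMN at 100 nM and both of p3 at 500 nM. The call at Mycn +131.0 kb was lost without replicate 3 of p3 at 100 nM on day 4 or, on day 6, replicate 2 of p3 at 500 nM or replicate 3 of pMN at 100 or 500 nM, with log2 differences of -0.93 to -0.99.

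Of the 64 members, 35 passed the filter in at least 1 comparison and 29 in none, so that counts above do not cover weak elements. An element that passed through a single group in which it was high had to differ between groups. Without the filter, 35 of the 64 were called between NMPs and day 4, against 58% of all elements, and 27 between days 4 and 6, against 44.7%. For p3 against the rest, 4, 19 and 20 were called at days 4, 5 and 6, against 12.1%, 30.4% and 36.7%. Among the other types it was 1, 10 and 10, against 3.52%, 12.6% and 13.9%. Between SAG concentrations limma called 0, against 0.00269%, and the course in p3 and pMN differed at 8, against 13.6%. The weak elements named here were chosen after their values were seen. Ccnd1 -48.4 kb was the clearest of those higher in p3. It had a mean of 101 counts in p3 at day 6, with samples at 64.3, 92.6, 57.8 and 190.3, against 5.05 in p0-1, 15.5 in p2 and 13.7 in pMN. The log2 difference from pMN without the filter was 2.1 (SE 0.32, adjusted p 0.000237). Mycn -153.1 kb and Mycn -84.6 kb were likewise higher in p3 at day 6, with means of 55.8 and 78.5 against 8.57 and 14.6 in pMN. Mycn -102.1 kb was higher in pMN, with 40.3, 69.5, 38.1 and 42.0 at day 6 and a mean of 5.21 in p2. At Ccnd2, where the element at the start was the only one tested, the weak elements -64.4 kb and -12.1 kb were open in NMPs, with means of 65.4 and 76.8, and these were 7.1 and 8.71 in pMN at day 4. At Mycn, the weak elements +121.9 kb, +21.1 kb and -45.5 kb had means of 67.6, 92.6 and 108 in NMPs and 5.99, 15.6 and 19.2 in pMN, and were called lower in all 4 types without the filter. Cdkn1c +45.8 kb, in intron 15 of 15 of Kcnq1, had 57.3 in NMPs and 7.34 in pMN.

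Other genes of the same network were read from a list of G1/S and Myc partners that had 205 elements with values, among them the E2F, retinoblastoma, CDK, Gadd45 and Btg genes. Between NMPs and day 4, 42 of 84 tested were called, 20 higher and 22 lower, 50% against 52.7% of all elements. From day 4 to day 6, 30 of 89 were called, 25 higher and 5 lower, 33.7% against 37.1%. Between p3 and the others at day 6 it was 22 of 86, 25.6% against 33.8%. The elements named next were chosen after their values were seen. E2f3 -25.3 kb, at the gene of an activating E2F, rose from 5.21 counts in NMPs to 376 in p0-1 at day 4, a log2 difference of 4.62 (SE 0.21, adjusted p 5.33e-10). It then fell in p0-1 to 135 at day 6. Gadd45g -12.8 kb, at a gene known for growth arrest, fell from 722 counts in NMPs to 25.9 in p3 and rose again in p3 to 253 at day 6, with -4.29 (SE 0.21, adjusted p 1.58e-11) and 2.83 (SE 0.2, adjusted p 3.37e-07). Cdkn2b -154.1 kb, at the gene of the CDK4 and CDK6 inhibitor p15, was higher in p3 at day 6, at 239 counts, than in pMN, at 11.1, with 3.47 (SE 0.32, adjusted p 2.21e-05). Apart from the later fall of E2f3 -25.3 kb, each of these differences passed the filter only through the group in which the element was high. They were thus fixed in advance, and their adjusted p values are no separate support.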

How the data were processed

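CaTS-ATAC libraries were read from the table the authors deposited, which holds reads per element on a log2 scale after DESeq2's variance-stabilizing transformation of counts divided by size factors. The authors' pipeline was nf-core/atacseq on the mm10 genome, with peaks from MACS2 and annotation from HOMER. The transformation was inverted, and 100% of values below 1000 reads came out whole within 1e-06, so depth and normalized counts were recovered. Differences were tested with limma 3.58.1 in R 4.3.3 on the log2 values, with a variance trend and only the groups compared in each fit. Tests covered elements with a mean above 100 normalized counts and were two-sided, with Benjamini-Hochberg adjustment over all of them. Calls needed a log2 difference above 1 in either direction with an adjusted p under 0.01. The fits were tested on simulated data. Because voom, which is a count method, was run on the recovered reads, its calls are given only as an alternative.

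The replicate numbers of the sample titles paired the samples at days 5 and 6, since the deviations of same-numbered samples correlated above 0.1 in 71 of 71 pairs (lowest 0.326) and 59 of 59 pairs (lowest 0.166). For 15 samples another label gives a different number, and the titles were used. Elements named were those nearest each start site, the element with the largest called difference of each gene, up to 3 called elements per gene and comparison, and others said to be chosen after their values were seen. The members and lists were chosen with earlier results of these data known. Alternatives covered the filter, the size threshold, the block, centring, voom and leaving out each replicate. Figures were drawn with matplotlib 3.10.9.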

Additional observations from a re-analysis of the deposited data

Results flagged for a closer look

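Among 348 groups of 4 to 6 samples, at 29 member elements, 25 had a highest or lowest sample far from the rest by Dixon's 95% criterion, 7.18%, where chance gives about 1 in 20. Replicate 1 of p3 at 500 nM on day 4 was low in 4 of them, at Ccnd2 -1.9 kb (1712 counts, the others from 2029), Cdkn2c -0.9 kb (999.1, from 1252), Myc +0.5 kb (1882, from 2396) and Mycn -144.7 kb (95.15, from 127). Replicate 1 of p3 at 100 nM on day 4 was high at Cdkn1a +0.9 kb (2112) and low at Myc +7.9 kb (64.6) and Mycn -110.6 kb (103), and replicate 3 was high at Ccnd1 -75.9 kb (102.5). Replicate 3 of p0-1 at 10 nM on day 4 was high at Cdkn1c +32.3 kb (1623, the others up to 1163) and low at Myc -6.3 kb (117.9) and Mycn -110.6 kb (50.68), and replicate 1 at 0 nM was high at Mycn +128.9 kb (119.4). Replicate 2 of p2 at 100 nM on day 4 was low at Mycn -52.7 kb (1245).

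At day 5, replicate 3 of pMN at 500 nM was low at the start site elements of Ccnd3 (1373), Myc (2444) and Mycn (1639). Replicate 1 of pMN at 100 nM was low at Mycn -110.6 kb (18.86). In p0-1 at 0 nM, replicate 3 was low at Cdkn2c -0.9 kb (1183) and replicate 1 at Mycn -106.7 kb (346.1), and in p2 at 10 nM replicate 3 was high at Myc +7.9 kb (225.7). At day 6, replicate 3 of p2 at 100 nM was low at Ccnd1 +4.4 kb (220.8, the others from 378.9) and Mycn +128.9 kb (309.2, from 489.8) and high at Mycn -110.6 kb (31.18). Replicate 3 of pMN at 100 nM was high at Ccnd3 +1.3 kb (1688) and replicate 3 of p3 at 500 nM low at Ccnd1 -1.6 kb (2271).

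The change from day 4 to day 6 differed between p3 and pMN by limma's interaction term at Mycn +131.0 kb (-1.03, adjusted p 3.24e-05), Mycn +128.9 kb (-1.10, 0.00157), Mycn +91.0 kb (-1.11, 0.00765) and Myc -6.3 kb (-1.59, 0.000918).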

How the results depend on the processing

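Without the filter on the mean, more members were called, since all 64 were tested. There were 35 between NMPs and day 4, 27 between days 4 and 6, 4, 19 and 20 between p3 and the others at days 4, 5 and 6, 1, 10 and 10 among the other types at these days, and 8 with a changed course in p3. At an absolute log2 difference above 2, the counts were 3 between days 4 and 6, 1, 1 and 3 for p3, 0 and 0 among the others at days 5 and 6, and 0 for the changed course. The count from NMPs to day 4 and the shares of all elements at this size are not given here. These counts are therefore not read as a result about the members. At the size of 1 used above, the changed course was called at 2 members with centred samples and at 1 with voom. Shares of all elements with centring, voom, a block or a replicate left out are likewise not given. Such counts serve only as alternatives. Leaving out each replicate gave 14 to 16, 13 to 14, 2, 7 to 8, 7 to 10, 0, 2, 3 to 4, 0 and 2 to 5 in the order of the report. Of 126 calls, 97 were kept without each library, 22 were lost without at least 1 and 10 fell under the filter without at least 1.

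With a block for the replicate number, the counts were 15, 13, 2, 8, 8, 0, 2, 4 and 0, and 6 instead of 4 for the changed course, which gained Mycn -144.7 kb (-1.38) and Ccnd1 -75.9 kb (1.02). The block gained Cdkn1c +23.0 kb from NMPs to p3 (-1.01), lost Myc +7.9 kb in pMN (-0.96) and Cdkn1c +23.0 kb in p3 (0.89) between days 4 and 6, and changed no other single call beside that of Mycn -144.7 kb given above. At day 4 the numbers paired the samples in 69 of 77 pairs, with a lowest r of -0.461. The median r of same-numbered pairs was 0.618 there, against 0.569 at day 5 and 0.565 at day 6. Between days 4 and 6 the pairing was weaker, in 100 of 144 pairs, with a median r of 0.236. Centring samples on their median kept 109 of the 126 calls and lost 17, and reversed none. From NMPs it lost Cdkn2c +7.8 kb in all 4 types (-0.66 to -0.96) and Ccnd1 +11.5 kb in p0-1, p2 and pMN (-0.87, -0.64 and -0.75), and the other 10 were among later days and types. The cause of these losses was not tested. Depth limited elements under the filter, where the difference is understated.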

Other observations

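For the 3 members with the largest range of condition means, the elements of other genes with the most similar pattern were taken over 25 conditions, from 31713 elements with a mean above 100 counts, as a description. Conditions share differentiations, so these are not independent points. For Cdkn1c +32.3 kb they were annotated to Ppm1l (r = 0.987), Sox1ot (0.985) and Rbms3 (0.983), and 109 elements had an r above 0.95. For Mycn +128.9 kb they were annotated to Rtraf (0.991), Dpysl4 (0.990) and Srrm4os (0.989), with 173 above 0.95. For Mycn +91.0 kb they were annotated to 2300002M23Rik (0.990), Myb (0.989) and Rabl2 (0.988), with 71 above 0.95.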
